A study of Polypedilum vanderplanki with 84 samples.

Results

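The genes g16178, g16179, g16180 and g16182 to g16187 form the middle run of Block 1 of ARId1, an island of desiccation-related genes on Chromosome 4 of the midge *Polypedilum vanderplanki*. They were taken by identifier, as every row of the expression table from g16178 to g16187, in which g16181 is not listed. These are 9 of the 18248 genes in the table, and all 9 were among the 9450 genes tested, which are those with a mean above 1 TPM (a transcript level per unit of length, as a share of the library) over all libraries. The study drew its Blocks from differential expression in the same libraries, so that the joint response of these genes is not evidence independent of their choice.

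Anhydrobiosis is life without water: dried larvae of this midge show no activity and resume it once wetted. Genes of this kind are gathered in the genome as Anhydrobiosis Related Islands (ARIds), and ARId1 holds genes for late embryogenesis abundant (LEA) proteins and for LIL (Lea-island-located) proteins. LEA proteins are hydrophilic, largely unfolded in water, and known from plant seeds and anhydrobiotic animals to shield proteins and membranes during drying, while trehalose is the sugar that larvae accumulate as they dry. No source read here states which of the 9 genes encode LEA and which encode LIL proteins, so each is called by its identifier.

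All RNA came from Pv11, a single cell line derived from this midge, in 28 groups of 3 biological replicates (84 libraries). In the stress experiment (54 libraries), cells were exposed to NaCl (0.5% per the labels; the main methods of the study print another dose), 600 mM trehalose, 600 mM mannitol, heat at 42°C for 15 min (labelled 42C) or 20 µM paraquat (labelled ROS; a compound that generates superoxide), or were left untreated (Control), and were sampled after 1, 3 and 24 h. In the time course (30 libraries, taken from an earlier study), cells were preconditioned in 600 mM trehalose mixed with a small part of culture medium. They were sampled at 0, 12, 24, 36 and 48 h (PreCondTre), then dried and sampled 0, 3, 12, 24 and 72 h after water was returned (Rehydration). Stress groups were set against Control of the same time, and time points against the one before. Osmolytes at 1 time share their Control, so agreement between their responses is given side by side only.

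Library sums lay between 999998 and 1000001 TPM, and 24889 to 29846 of 66333 transcripts were above 0 per library. The depth of the libraries is unknown, and a low value is written as listed. A gene was called where limma's adjusted p was under 0.05 and the fold change above 2 on log2(TPM + 1). TPM fixes the library total, so a shift of composition and a shift of most genes cannot be told apart in it. The median gene moved in many comparisons: by −0.75 on the log2 scale at NaCl 3 h, −0.62 at Trehalose 3 h, −0.43 at Mannitol 3 h, −0.34 at Mannitol 1 h and −0.33 at NaCl 1 h. The shift was 0.27 at Heat 24 h, 0.29 at Paraquat 24 h and 0.54 at Rehydration 72 h against PreCondTre 0 h. Relative to the median gene, the median of the 9 genes was 0.94 at NaCl 1 h and 0.41 at Mannitol 1 h. It was −0.28 at Heat 24 h and 0.04 at Paraquat 24 h. For the other comparisons named here it is given with their results below. In whole-cell RNA, fewer cells that use a gene and less of its RNA in each cell cannot be told apart.

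All 9 genes were called higher in 3 settings: NaCl at 24 h, trehalose at 24 h and the first 12 h of preconditioning. Of 216 tests (9 genes in 24 comparisons), 48 were calls upward and 10 downward. No share over all genes was pooled in this way, so these totals are a description only. In single comparisons that share differed widely, with 0.296% of all genes called lower at Heat 3 h and 37.1% at NaCl 3 h. It is given with each comparison below. Every gene was called higher in at least 3 of the 24 comparisons, g16185 in the most (7) and g16183 in the fewest (3). No gene was called under paraquat at any time, and heat gave calls only at 3 h, both of them lower. The 10 downward calls were spread over 7 genes, with 4 of them at Rehydration 12 h.

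**Figure D1:**
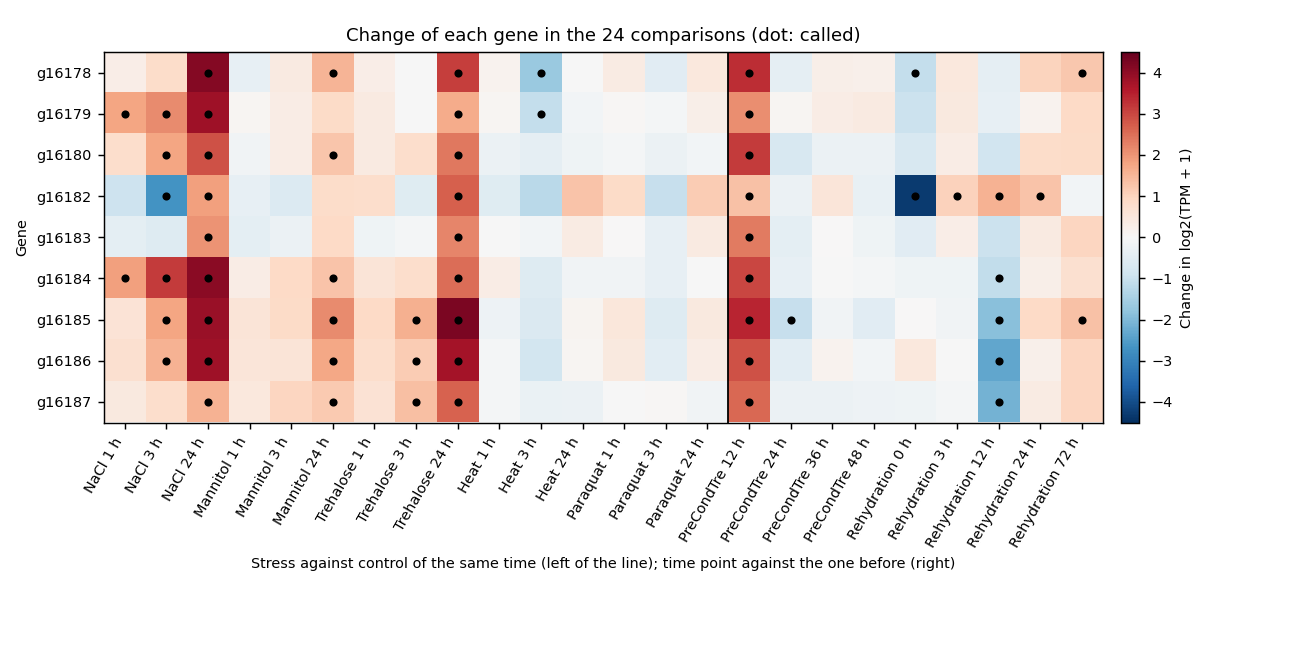
Change in log2(TPM + 1) of each of the 9 genes (rows) in the 24 comparisons (columns), stresses against Control of the same time left of the line and time points against the preceding one right of it. Dots mark called changes, 48 higher and 10 lower, and the columns NaCl 24 h, Trehalose 24 h and PreCondTre 12 h have a dot for all 9 genes.

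At NaCl 24 h all 9 genes were called higher than in Control 24 h, where 7.75% of all genes tested were called higher. Their median change was 3.81 on the log2 scale, or 3.98 above the median gene. The steepest was g16178, with 82.0, 70.3 and 79.3 TPM under NaCl, against 3.85, 3.76 and 2.75 TPM in Control. That is a 22.4-fold difference of means (log2 change 4.14, SE 0.23, adjusted p = 1.7e-18), with no overlap between the groups. For g16179 the libraries held 38.9, 40.8 and 39.8 TPM under NaCl, against 1.73, 1.72 and 2.27 TPM in Control (log2 change 3.82, SE 0.18). The abundant g16184 had 2214, 2266 and 2235 TPM under NaCl, against 147, 121 and 136 TPM in Control (log2 change 4.05, SE 0.10, adjusted p = 4.5e-31). In g16184 the 3 salt-exposed libraries lay within a narrow band far above all 3 Control libraries.

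Further along the run, g16185 and g16186 rose to a similar degree at NaCl 24 h. In g16185 the values were 258, 271 and 272 TPM under NaCl, against 17.2, 16.5 and 18.2 TPM in Control (log2 change 3.87), and in g16186 they were 328, 346 and 355 TPM, against 24.3, 25.3 and 21.3 TPM (log2 change 3.81). For g16180 there were 2833, 2895 and 2809.5 TPM under NaCl, against 403, 371 and 387 TPM in Control (log2 change 2.88). Smaller rises were those of g16183 (471.6 ± 11.1 TPM under NaCl and 116.2 ± 14.7 TPM in Control, SD, n = 3 each; log2 change 2.02), g16182 (23.1 ± 1.56 and 6.28 ± 3.69 TPM; log2 change 1.84, SE 0.50, adjusted p = 0.0017) and g16187 (4171 ± 181 and 1416 ± 62.3 TPM; log2 change 1.56, SE 0.06). The gene with the highest level thus had the smallest fold change under salt. Over all genes called at NaCl 24 h, 40.8% were higher, and 59.1% after libraries were rescaled to equal medians (median ratio scaling), which left all 9 calls in place.

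Fewer genes were called at the earlier times of salt. At NaCl 1 h only g16179 and g16184 were called higher, where 1.74% of all genes were. In g16179 the libraries held 8.40, 8.69 and 10.8 TPM under NaCl, against 2.68, 1.77 and 1.69 TPM in Control 1 h (log2 change 1.77, adjusted p = 1.4e-10). In g16184 they held 401, 312 and 348 TPM, against 97.9, 101 and 94.9 TPM (log2 change 1.84, adjusted p = 7.9e-19). Neither gene's groups overlapped, and the 2 genes are not next to each other in the run. After median ratio scaling 5 genes were called at NaCl 1 h, with g16180, g16185 and g16186 added, while the share of upward calls over all genes went to 49.8% in place of 14.3%.

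At NaCl 3 h 5 of the 9 genes were called higher and 1 lower, where 2.85% of all genes were called higher and 37.1% lower. The median of the 9 was 1.55 on the log2 scale, or 2.303 above the median gene. g16184 again led, with 1411, 1618 and 1390.1 TPM under NaCl, against 150, 180.0 and 170 TPM in Control 3 h (8.84-fold, log2 change 3.14, adjusted p = 3.2e-27). g16179 (log2 change 2.13), g16180 (1.76), g16185 (1.76) and g16186 (1.55) followed it. In g16186 the Control 3 h group was uneven: replicate 2 held 81.1 TPM and the others 24.9 and 27.3 TPM, and the NaCl libraries (102, 120.3 and 120.5 TPM) lay above all 3.

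g16182 went the other way at NaCl 3 h. Its libraries held 1.00, 6.48 and 1.19 TPM under NaCl, against 11.7, 28.4 and 22.8 TPM in Control 3 h, with no overlap (log2 change −2.69, SE 0.50, adjusted p = 8.1e-06). Control itself stood higher at 3 h than at the other times in this gene: 20.9 ± 8.48 TPM at 3 h, against 3.25 ± 0.86 at 1 h and 6.28 ± 3.69 TPM at 24 h (SD, n = 3 each; not tested). The NaCl 3 h libraries overlapped Control 1 h. On this scale 7.12% of all calls at NaCl 3 h were higher, and after median ratio scaling 49.9% were; g16178 and g16187 then joined the genes called higher, and g16182 remained called lower.

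The change between the NaCl responses at 3 h and 24 h was itself tested. The response was greater at 24 h in 7 of the 9 genes, where 24.7% of all genes were called in that direction. The median difference was 2.11 on the log2 scale, or 1.48 above the median gene. It was greatest in g16182 (4.54, SE 0.70), whose change was negative at 3 h and positive at 24 h, and in g16178 (3.31, SE 0.33). It was smaller in g16180 (1.12, SE 0.07), whose call was lost after scaling (0.43). g16184 and g16187 were not called, and g16184 had reached 1473 ± 126 TPM by 3 h, against 2239 ± 26.0 TPM at 24 h (SD, n = 3 each). Over all genes 98.0% of the calls of this test were upward, and 49.2% after scaling.

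**Figure D2:**
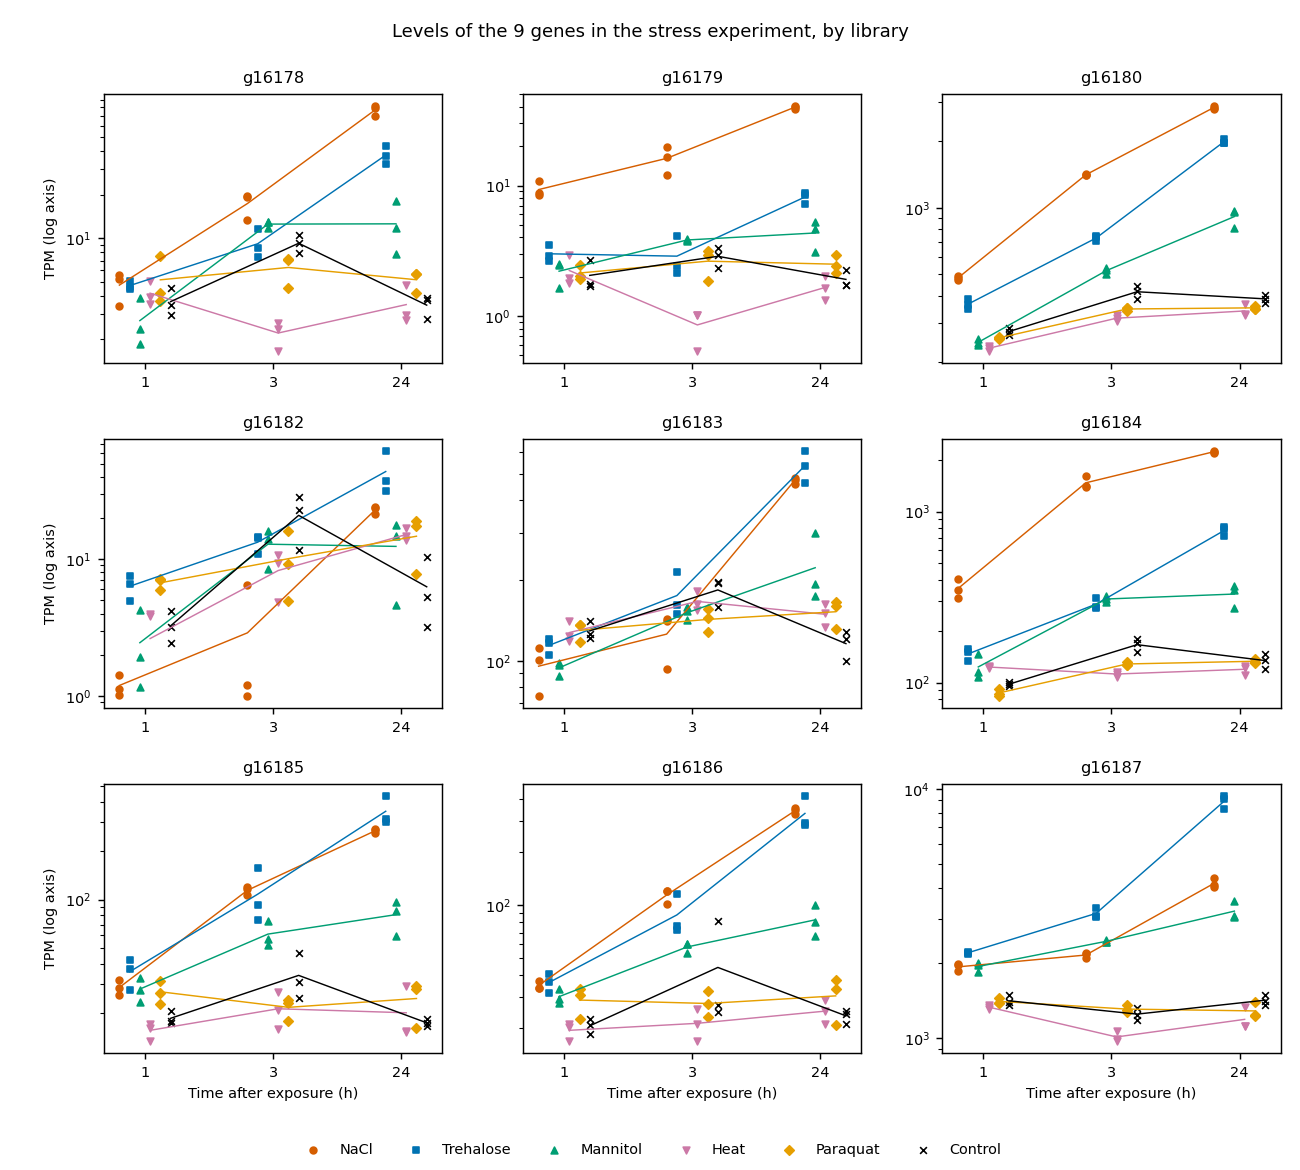
TPM of each gene (log axis; panels differ in range) by time after exposure in the stress experiment. Points are the 3 libraries of a group and lines join group means; 1 library of g16182 at Heat 1 h is listed at 0 and not drawn. NaCl and trehalose stand above Control in all 9 panels at 24 h, and g16182 falls below it under NaCl at 3 h.

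At Trehalose 24 h, too, all 9 genes were called higher than in Control 24 h, where 6.99% of all genes were called higher. The median change was 2.66 on the log2 scale, or 2.79 above the median gene. g16185 changed the most, with 302, 314 and 438 TPM under trehalose, against 17.2, 16.5 and 18.2 TPM in Control (20.3-fold, log2 change 4.25, SE 0.25, adjusted p = 3.2e-18). Next came g16186, with 294, 284 and 418 TPM under trehalose, against 24.3, 25.3 and 21.3 TPM in Control (log2 change 3.74). In both genes replicate 3 of the trehalose group was the highest library, and no library overlapped Control.

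The most abundant gene, g16187, had 9391, 9089 and 8309 TPM at Trehalose 24 h, against 1482, 1407 and 1359 TPM in Control 24 h (6.31-fold, log2 change 2.66, SE 0.06, adjusted p = 3e-31). In g16178 there were 32.3, 36.9 and 43.2 TPM under trehalose, against 3.85, 3.76 and 2.75 TPM in Control (log2 change 3.11). The smallest rise was that of g16179, with 7.21, 8.76 and 8.52 TPM, against 1.73, 1.72 and 2.27 TPM (log2 change 1.66). Changes of g16180 (2.36), g16182 (2.68), g16183 (2.19) and g16184 (2.52) lay between these. Of all calls at this time 40.5% were higher, and 54.7% after scaling, under which all 9 genes kept their calls.

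No gene of the 9 was called at Trehalose 1 h, where 3.25% of all genes were called in either direction; at an unadjusted p under 0.05 limma had 6 of the 9 and 4178 of 9450 genes. Without Trehalose 1 h replicate 1 there was 1 call. After scaling, g16185 and g16186 were called at 1 h, and the share of upward calls over all genes was 64.7% in place of 20.8%. At Trehalose 3 h g16185, g16186 and g16187 were called higher, where 2.37% of all genes were. The median of the 9 was 0.78 on the log2 scale, or 1.40 above the median gene, and all 9 lay above it. In g16187 the libraries held 3324, 3068 and 3091 TPM under trehalose, against 1234, 1178 and 1321 TPM in Control 3 h (log2 change 1.34, SE 0.06, adjusted p = 1e-21). In g16185 they held 75.3, 92.0 and 157 TPM, against 24.6, 46.5 and 30.9 TPM (log2 change 1.62). The last genes of the run, g16185 to g16187, were thus the first of the 9 to be called in trehalose.

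The call of g16186 at Trehalose 3 h was the least firm. Its libraries held 72.4, 76.5 and 116 TPM under trehalose, against 24.9, 81.1 and 27.3 TPM in Control 3 h, so that 1 Control library lay inside the treated range (log2 change 1.16, SE 0.25, adjusted p = 8.8e-05). The fold fell under 2 without Control 3 h replicate 1 (0.86), without Control 3 h replicate 3 (0.92) or without Trehalose 3 h replicate 3 (0.95). Its adjusted p was 0.073 when only the groups compared entered the fit. After scaling 5 genes were called at 3 h, with g16180 (1.50) and g16184 (1.48) added, and upward calls over all genes were 53.3% in place of 7.85%.

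All 9 genes had a greater trehalose response at 24 h than at 3 h by the test of that difference, where 14.6% of all genes were called in that direction. The median difference was 2.27 on the log2 scale, or 1.79 above the median gene. It was greatest in g16182 (3.23, SE 0.70) and g16178 (3.13, SE 0.33), and smallest in g16187 (1.31, SE 0.09), whose response was already called at 3 h. After scaling, g16187 lost its call (0.78), and upward calls over all genes were 47.7% in place of 95.1%.

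Mannitol gave fewer calls. At Mannitol 24 h 6 of the 9 were called higher than in Control 24 h, where 8.46% of all genes were, with a median of 1.23 on the log2 scale. g16185 led again, with 97.3, 59.4 and 85.4 TPM under mannitol, against 17.2, 16.5 and 18.2 TPM in Control (4.66-fold, log2 change 2.13, SE 0.25). g16186 (log2 change 1.75), g16178 (1.55), g16184 (1.28), g16180 (1.23) and g16187 (1.19) were the others called. The 3 genes that were not called had means of 4.33 ± 1.14 TPM under mannitol and 1.91 ± 0.32 TPM in Control in g16179, 12.4 ± 6.92 and 6.28 ± 3.69 TPM in g16182, and 223 ± 67.4 and 116 ± 14.7 TPM in g16183 (SD, n = 3 each). The mannitol libraries were uneven: in g16183 replicate 1 held 300.0 TPM and the others 175 and 193 TPM, and in g16182 replicate 2 held 4.60 TPM and the others 14.8 and 17.8 TPM.

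At Mannitol 1 h no gene was called, where 3.82% of all genes were called in either direction (6 of 9 and 4745 of 9450 genes at an unadjusted p under 0.05 in limma). Mannitol 3 h gave no call either, where 25.2% of all genes were called in either direction (5 of 9 and 6242 of 9450 genes at an unadjusted p under 0.05). The median of the 9 at 3 h was 0.41 on the log2 scale, or 0.84 above the median gene. Scaling changed this count: g16184, g16185, g16186 and g16187 were then called higher at 3 h, and upward calls over all genes were 59.5% in place of 18.3%. At 1 h scaling called none of the 9, with upward calls at 75.4% in place of 11.4%. Without Control 3 h replicate 2 there were 2 calls at Mannitol 3 h, and without Control 3 h replicate 3 there was 1.

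The mannitol response was called greater at 24 h than at 3 h in 4 of the 9 genes, where 10.7% of all genes were called in that direction. The median difference was 1.14 on the log2 scale, or 0.70 above the median gene. All 4 calls were lost after scaling, when upward calls over all genes were 46.3% in place of 95.7%. They also depended on single libraries: without Mannitol 24 h replicate 1 the values of g16178 (0.85) and g16183 (0.94) were under the fold limit, and without Control 3 h replicate 2 the value of g16186 was 0.63.

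Direct tests between osmolytes at 24 h, which do not use Control, did not give 1 order for all genes. Trehalose 24 h was lower than NaCl 24 h in g16178, g16179 and g16184, where 8.34% of all genes were called lower, and higher in g16187, where 8.78% were called higher. The levels of g16179 were 7.21, 8.76 and 8.52 TPM under trehalose, against 38.9, 40.8 and 39.8 TPM under NaCl (log2 difference −2.16, SE 0.18, adjusted p = 4.2e-13). Those of g16184 were 717, 815 and 794 TPM under trehalose, against 2214, 2266 and 2235 TPM under NaCl (log2 difference −1.53, SE 0.10, adjusted p = 4.8e-17). Those of g16187 were 9391, 9089 and 8309 TPM under trehalose, against 4372, 4021 and 4121 TPM under NaCl (log2 difference 1.10, SE 0.06, adjusted p = 1.3e-18). The genes called at NaCl 1 h, g16179 and g16184, were thus among those that stood higher under NaCl at 24 h. The difference in g16178 (−1.03, adjusted p = 0.00028) was near the fold limit, and under it without NaCl 24 h replicate 1 (−0.98) or without Trehalose 24 h replicate 1 (−0.93).

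The same dose of trehalose and mannitol (600 mM) did not give the same levels. At 24 h 8 of the 9 genes were higher under trehalose than under mannitol, where 1.27% of all genes were called higher, with a median of 1.47 on the log2 scale, or 1.61 above the median gene. The difference was greatest in g16185, with 302, 314 and 438 TPM under trehalose, against 97.3, 59.4 and 85.4 TPM under mannitol (log2 difference 2.12, SE 0.25). In g16187 it was 1.47 (SE 0.06), with 8929 ± 558 TPM under trehalose and 3229 ± 274 TPM under mannitol (SD, n = 3 each). The gene not called, g16179, had 8.16 ± 0.83 TPM under trehalose and 4.33 ± 1.14 TPM under mannitol. For g16182 (1.86) the call rested on Mannitol 24 h replicate 2, without which the value was 1.32 (adjusted p = 0.071). Scaling put upward calls over all genes at 42.3% in place of 26.7%.

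NaCl 24 h was higher than Mannitol 24 h in 7 genes, where 4.62% of all genes were called higher. The differences were greatest in g16179 (39.8 ± 0.96 TPM under NaCl and 4.33 ± 1.14 TPM under mannitol, log2 difference 2.96), g16184 (2.77) and g16178 (2.60). g16182 and g16187 were the ones not called, and g16182 was called after scaling, when upward calls over all genes were 52.2% in place of 33.6%. The call of g16183 (1.12) was lost without Mannitol 24 h replicate 2 (0.97).

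Heat and paraquat gave few calls. The calls were at Heat 3 h, with g16178 and g16179 called lower, where 0.296% of all genes were called lower. In g16178 the libraries held 2.62, 2.36 and 1.67 TPM after heat, against 7.97, 9.23 and 10.5 TPM in Control 3 h (log2 change −1.67, SE 0.23, adjusted p = 2.4e-06). In g16179 they held 1.01, 1.01 and 0.54 TPM, against 2.94, 3.32 and 2.34 TPM (log2 change −1.06, SE 0.18, adjusted p = 9.7e-05). Both are at their lowest of the 28 groups at Heat 3 h, while Control 3 h of g16178 stood above Control at 1 h (2.93 to 4.55 TPM) and 24 h (2.75 to 3.85 TPM). All 9 genes had a negative change at Heat 3 h, with a median of −0.64 on the log2 scale, or −0.56 against the median gene.

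These 2 calls were less firm than those under osmolytes. That of g16179 fell under the fold limit without Control 3 h replicate 2 (−0.98), without Heat 3 h replicate 3 (−0.94) or after scaling (−0.95). With only the groups compared in the fit, adjusted p was 0.059 for g16178 and 0.21 for g16179. At Heat 1 h none of the 9 was called, where 1.28% of all genes were called in either direction (2 of 9 and 2113 of 9450 genes at an unadjusted p under 0.05 in limma). At Heat 24 h none was called, where 1.79% of all genes were (4 of 9 and 4081 of 9450 genes at an unadjusted p under 0.05); upward calls over all genes were 56.1% after scaling in place of 95.3%. Without Control 24 h replicate 1 there was 1 call at Heat 24 h, and 1 at Paraquat 24 h.

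For paraquat the count was 0 of 9 at each time, with 1 call at 24 h without Paraquat 24 h replicate 1. At 1 h and 3 h 0% of all genes were called by limma in either direction, with 1 of 9 and 1456 of 9450 genes at an unadjusted p under 0.05 at 1 h, and 6 of 9 and 472 of 9450 genes at 3 h. At 24 h 2.9% of all genes were called in either direction (4 of 9 and 4468 of 9450 genes at an unadjusted p under 0.05), 97.8% of them higher, and after scaling 0 were higher. In g16187 the libraries held 1388, 1218 and 1240 TPM at Paraquat 24 h, against 1482, 1407 and 1359 TPM in Control 24 h, and the groups overlapped.

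All 9 genes stood higher after 12 h of preconditioning. The time course held no untreated cells at later times, and the preconditioning mixture also diluted the culture medium. Trehalose, diluted medium and time in culture therefore cannot be told apart in it. At PreCondTre 12 h all 9 genes were called higher than at PreCondTre 0 h, where 6.24% of all genes were called higher, with a median change of 2.88 on the log2 scale. In g16185 the libraries held 617, 688 and 636 TPM at 12 h, against 70.8, 56.4 and 50.4 TPM at 0 h (10.9-fold, log2 change 3.44, SE 0.16, adjusted p = 1.2e-14). In g16178 they held 59.1, 56.2 and 61.0 TPM, against 4.53, 6.62 and 4.20 TPM (log2 change 3.31, SE 0.13). In g16180 they held 2849, 2809 and 3276 TPM, against 306, 385 and 308 TPM (log2 change 3.16, SE 0.08). The 12 h libraries of these genes were all far above the 0 h ones.

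The other genes rose by 1.31 to 3.00 on the log2 scale. g16187 reached 13909, 13995 and 14293 TPM at 12 h, against 2383, 2242 and 2449 TPM at 0 h (5.96-fold, log2 change 2.58, adjusted p = 5.7e-18), the highest level of any of the 9 genes in any group. g16184 stood at 1342, 1330.3 and 1239 TPM, against 166, 149 and 171 TPM (log2 change 3.00). g16182 changed least, with 28.01, 46.7 and 38.8 TPM at 12 h, against 14.3, 14.2 and 14.5 TPM at 0 h (log2 change 1.31, SE 0.39, adjusted p = 0.0069). Its 12 h libraries were spread over a wide range, though none overlapped 0 h.

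After 12 h the levels drifted without many calls. At PreCondTre 24 h, compared with 12 h, g16185 alone was called lower, where 5.4% of all genes were, with 414, 311 and 238 TPM at 24 h, against 617, 688 and 636 TPM at 12 h (log2 change −1.04, adjusted p = 4.6e-05). That call was lost without PreCondTre 12 h replicate 2 (−0.999), without PreCondTre 24 h replicate 3 (−0.85) and after scaling (−0.85), when upward calls over all genes were 22.4% in place of 6.25%. At 36 h no gene was called, where 0.212% of all genes were called in either direction (2 of 9 and 2152 of 9450 genes at an unadjusted p under 0.05 in limma; upward calls 32.3% after scaling in place of 70.0%). At 48 h there was no call among the 9 either, where 4.29% of all genes were called (4 of 9 and 4506 of 9450 genes at an unadjusted p under 0.05; upward calls 84.6% after scaling in place of 99.0%). The mean of g16187 stood at 14066 ± 202, 11670.5 ± 754, 9755 ± 243 and 8421 ± 254 TPM at 12, 24, 36 and 48 h, and that of g16179 at 16.2 ± 1.13, 17.2 ± 1.84, 22.2 ± 1.68 and 29.9 ± 3.28 TPM (SD, n = 3 each). The most abundant gene was thus lower at each later time, and one of the rarest higher, with no single step called. The median gene itself moved by −0.16, 0.13 and 0.27 on the log2 scale at 24, 36 and 48 h. Relative to it g16179 changed by 0.24, 0.22 and 0.14, and g16187 by −0.11, −0.38 and −0.48.

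Across drying 2 of the 9 genes were called. At Rehydration 0 h, compared with PreCondTre 48 h, g16178 and g16182 were called lower, where 4.36% of all genes were. g16182 held 0.24, 0.79 and 1.87 TPM at Rehydration 0 h, against 33.8, 40.0 and 33.9 TPM at PreCondTre 48 h (log2 change −4.31, SE 0.39, adjusted p = 5.3e-09). No other of the 9450 genes tested had a lower change in this comparison. g16178 held 26.9, 29.0 and 31.6 TPM, against 60.2, 62.5 and 63.5 TPM (log2 change −1.07, adjusted p = 8.5e-07), and lost its call after scaling (−0.95), when upward calls over all genes were 63.5% in place of 47.0%. The other 7 genes were not called. At an unadjusted p under 0.05 limma had 7 of the 9 and 4817 of 9450 genes in this comparison. Among the uncalled genes, g16179 held 14.7 ± 0.27 TPM at Rehydration 0 h, against 29.9 ± 3.28 TPM at PreCondTre 48 h. In g16180 the means were 762 ± 23.9 and 1266 ± 42.5 TPM, and in g16183 371 ± 17.6 and 534 ± 16.8 TPM (SD, n = 3 each). On the other side g16186 held 393, 453 and 492 TPM at Rehydration 0 h, against 296, 354 and 319 TPM at PreCondTre 48 h.

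Between 3 and 12 h of rehydration calls went in both directions. At Rehydration 12 h, compared with 3 h, g16184, g16185, g16186 and g16187 were called lower, where 2.42% of all genes were called lower, and g16182 was called higher, where 10.9% were called higher. In g16186 the libraries held 83.9, 75.3 and 99.9 TPM at 12 h, against 474, 354 and 497 TPM at 3 h (log2 change −2.34, SE 0.16, adjusted p = 2.5e-11). In g16187 they held 1373, 1804 and 1647 TPM, against 7308, 6633 and 6865 TPM (log2 change −2.12, SE 0.08, adjusted p = 1.6e-15). For g16185 the change was −1.89 (SE 0.16) and for g16184 −1.12 (SE 0.11). The 4 genes called lower are the last 4 of the run. All 3 libraries of g16187 at Rehydration 12 h lay under those of PreCondTre 0 h (1373 to 1804 TPM, against 2242 to 2449 TPM), whereas those of g16185 overlapped them (42.6 to 56.8 TPM, against 50.4 to 70.8 TPM). The call of g16184 was lost when replicate 1 of every group was left out (−0.98).

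The first genes of the run had lower means at 12 h too, short of the fold limit. g16178 held 27.9, 36.0 and 28.7 TPM at Rehydration 12 h, against 45.1, 37.8 and 41.0 TPM at 3 h, and g16179 13.0, 15.9 and 17.6 TPM, against 22.4, 22.9 and 16.3 TPM; neither was called. The median of the 9 was −0.97 on the log2 scale, or −1.26 against the median gene, which moved by 0.29. After scaling g16180 (−1.19) and g16183 (−1.29) were also called lower, and upward calls over all genes were 53.3% in place of 81.8%.

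g16182 was called higher at each step up to 24 h, from a very low start. Its libraries held 4.98, 0.66 and 4.75 TPM at Rehydration 3 h, 10.7, 7.34 and 14.6 TPM at 12 h and 29.3, 26.3 and 24.7 TPM at 24 h. The steps were 1.05 at 3 h (adjusted p = 0.029; 7.96% of all genes called higher), 1.58 at 12 h (adjusted p = 0.0015) and 1.27 at 24 h (adjusted p = 0.026; 1.14% of all genes called higher). The 12 h libraries did not overlap those of 3 h, nor the 24 h libraries those of 12 h. The 3 h libraries overlapped 0 h, and that call was lost without Rehydration 0 h replicate 1 (0.76) or replicate 2 (adjusted p = 0.067), without 3 h replicate 1 (0.74) or replicate 3 (0.77), after scaling (0.82) and with only the groups compared in the fit (adjusted p = 0.12). The 12 h call was lost without 3 h replicate 2 (0.97). The 24 h call was lost when any of 5 libraries was left out: Rehydration 12 h replicate 1 (adjusted p = 0.051) or replicate 2 (0.14), or Rehydration 24 h replicate 1 (0.068), replicate 2 (0.068) or replicate 3 (0.063). No other gene of the 9 was called at Rehydration 3 h or 24 h; scaling put upward calls over all genes at 58.5% in place of 92.8% at 3 h, and at 79.0% in place of 62.8% at 24 h, where g16178 was then called too. Without Rehydration 12 h replicate 3 there were 2 calls at 24 h.

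At Rehydration 72 h, compared with 24 h, g16178 and g16185 were called higher, where 2.01% of all genes were. g16178 held 159, 128 and 147 TPM at 72 h, against 60.9, 62.5 and 61.8 TPM at 24 h (log2 change 1.21, adjusted p = 1.6e-07). g16185 held 268, 193 and 217 TPM, against 92.0, 94.7 and 82.6 TPM (log2 change 1.31, adjusted p = 9.3e-07). In g16182 the means were 25.7 ± 9.69 TPM at 72 h and 26.7 ± 2.33 TPM at 24 h (SD, n = 3 each), and the groups overlapped. The median of the 9 was 0.96 on the log2 scale, or 1.14 above the median gene, and 7 of the 9 were called after scaling, when upward calls over all genes were 58.0% in place of 34.8%. Without Rehydration 72 h replicate 2 there were 5 calls, and without Rehydration 24 h replicate 1 or replicate 2 there were 4.

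**Figure D3:**
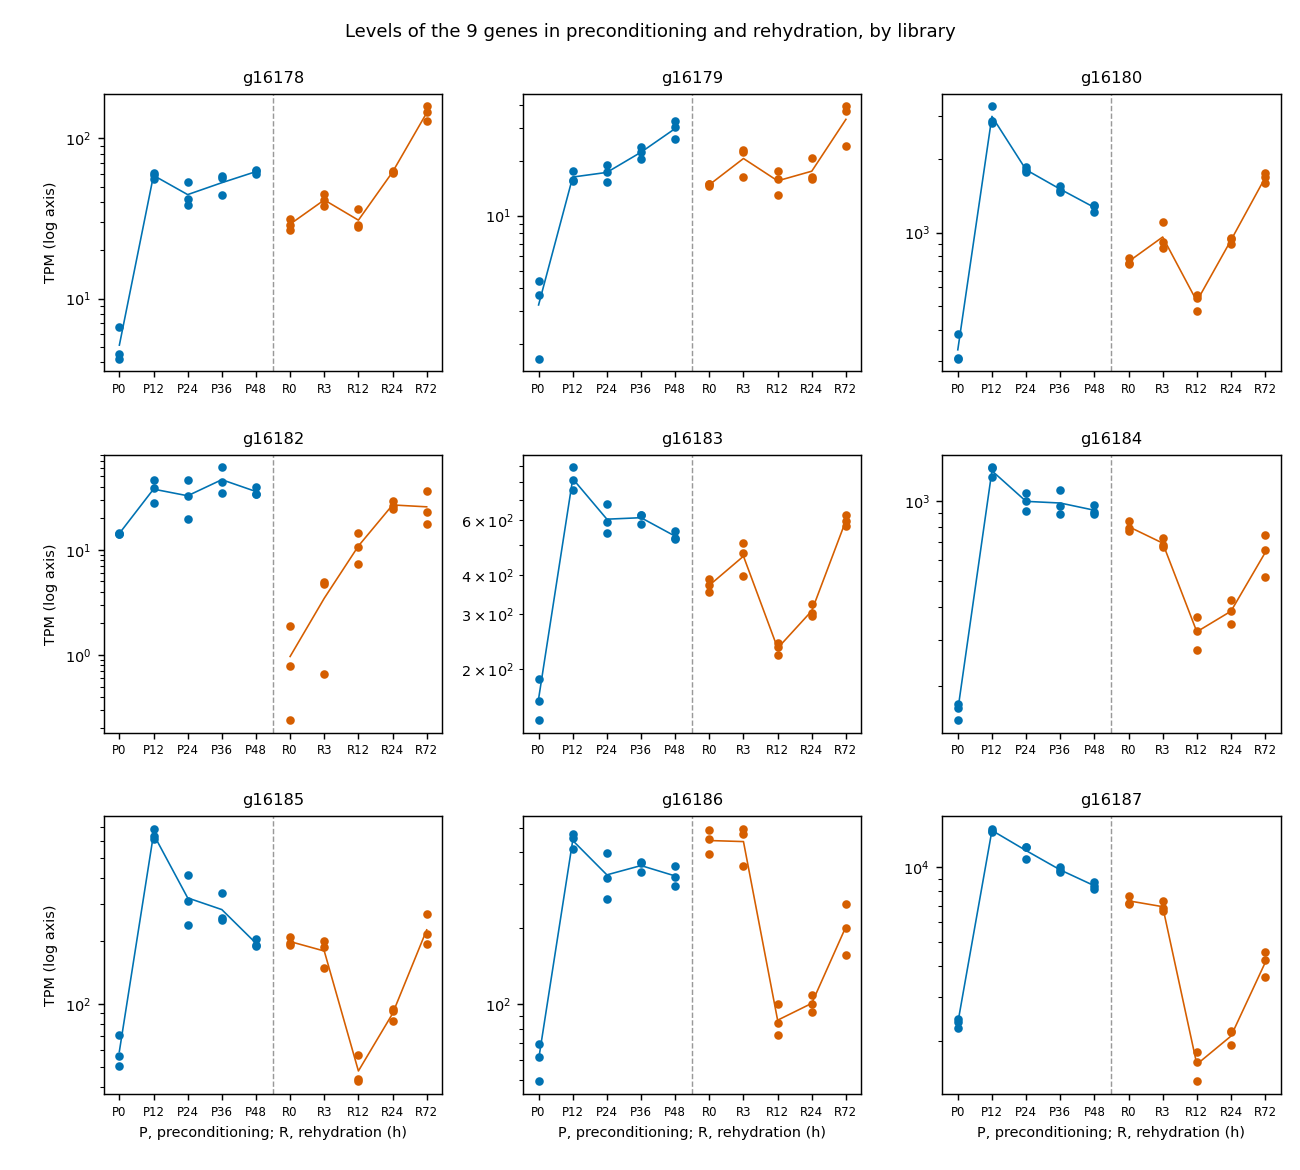
TPM of each gene (log axis; panels differ in range) at the 5 times of preconditioning (P, blue, hours in trehalose) and the 5 times of rehydration (R, orange, hours after water was returned). Points are libraries, lines join group means and the dashed line marks drying. All 9 genes step up at 12 h of preconditioning, g16182 drops at drying and g16184 to g16187 drop between 3 and 12 h of rehydration.

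Most of the genes stood higher after recovery than before preconditioning. At Rehydration 72 h 7 of the 9 genes were called higher than at PreCondTre 0 h, where 22.3% of all genes were called higher, with a median of 1.91 on the log2 scale, or 1.37 above the median gene. g16178 held 159, 128 and 147 TPM at Rehydration 72 h, against 4.53, 6.62 and 4.20 TPM at PreCondTre 0 h (28.3-fold, log2 change 4.59, SE 0.13, adjusted p = 8.2e-19). g16179 held 37.2, 24.0 and 39.6 TPM, against 1.65, 4.41 and 3.69 TPM (10.3-fold, log2 change 3.06). Changes of g16180 (2.34), g16183 (1.91), g16184 (1.96), g16185 (1.91) and g16186 (1.72) were smaller. g16182, at 25.7 ± 9.69 TPM after 72 h and 14.3 ± 0.18 TPM before, and g16187, at 4125 ± 477 and 2358 ± 106 TPM (SD, n = 3 each), were not called. Over all genes, upward calls were 86.9%, and 49.4% after scaling, under which the same count of 7 was called.

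Levels differed between the genes by orders of magnitude, with means over all 84 libraries of 10.7 TPM for g16179, 15.8 TPM for g16182, 26.9 TPM for g16178, 126 TPM for g16185, 148 TPM for g16186, 285 TPM for g16183, 513 TPM for g16184, 899 TPM for g16180 and 3931 TPM for g16187. The ranges between the lowest and highest group were 65.3-fold in g16178 and 8.66-fold in g16183. The peak was at PreCondTre 12 h in 5 genes (g16180, g16183, g16185, g16186 and g16187), at NaCl 24 h in g16179 and g16184, at PreCondTre 36 h in g16182 and at Rehydration 72 h in g16178. The lowest group was a heat group in 6 genes. It overlapped the next group in the order of means in g16178, g16185 and g16186, and did not in g16179, g16180 and g16187. Between the stress and time-course libraries these orders are descriptive, since the experiments come from different studies.

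The order of the 28 groups was clearest in g16180, where 16 of 27 neighbouring groups in the order of means did not overlap. It ran PreCondTre 12 h (2978 ± 259 TPM), NaCl 24 h (2846 ± 44.0), Trehalose 24 h (1994 ± 46.1), PreCondTre 24 h (1803 ± 46.1), Rehydration 72 h (1675 ± 71.4) and PreCondTre 36 h (1503 ± 42.7 TPM), and ended with Heat 1 h (231 ± 5.91 TPM; SD, n = 3 each). The first place was not separate: PreCondTre 12 h spanned 2809 to 3276 TPM and NaCl 24 h 2809.5 to 2895 TPM, and NaCl 24 h came first after scaling or without replicate 3. In g16187 11 of 27 neighbours did not overlap, and the order began with PreCondTre at 12, 24 and 36 h, followed by Trehalose 24 h (8929 ± 558 TPM), PreCondTre 48 h (8421 ± 254) and Rehydration 0 h (7324 ± 301 TPM). In g16184 8 of 27 did not overlap: NaCl 24 h (2239 ± 26.0 TPM) and NaCl 3 h (1473 ± 126 TPM) came before PreCondTre 12 h (1304 ± 56.2 TPM), and ROS 1 h was last (87.0 ± 3.95 TPM).

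The other genes had fewer separate steps. For g16178 (5 of 27), Rehydration 72 h (145 ± 15.5 TPM) lay apart from NaCl 24 h (77.2 ± 6.12), and NaCl 24 h from PreCondTre 48 h (62.1 ± 1.72 TPM), while after scaling NaCl 24 h came first. For g16179 (4 of 27), NaCl 24 h (39.8 ± 0.96 TPM) was followed by Rehydration 72 h (33.6 ± 8.40 TPM), with overlap. For g16183 (5 of 27), PreCondTre 12 h (817 ± 67.3 TPM) was followed by PreCondTre 36 h (612 ± 23.3) and 24 h (606 ± 66.4 TPM), and Mannitol 1 h was last (94.4 ± 5.73 TPM). For g16185 (2 of 27), PreCondTre 12 h (647 ± 36.6 TPM) lay apart from Trehalose 24 h (351 ± 75.4 TPM). For g16186 (2 of 27), PreCondTre 12 h, Rehydration 0 h and Rehydration 3 h (446 ± 31.7, 446 ± 49.8 and 442 ± 76.6 TPM) did not differ beyond their spread. For g16182 none of the 27 neighbours was separate, and its median coefficient of variation within groups was 35.2%, against 3.06% in g16180. Its first place was taken by Trehalose 24 h (43.8 ± 16.2 TPM) after scaling or without replicate 1, in place of PreCondTre 36 h (46.5 ± 13.2 TPM).

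Summed over the 9 genes, the share of all TPM was 2.04 ± 0.04% at PreCondTre 12 h, against 0.315 ± 0.004% at PreCondTre 0 h. In the stress experiment it was 1.30 ± 0.02% at Trehalose 24 h, 1.05 ± 0.01% at NaCl 24 h and 0.489 ± 0.032% at Mannitol 24 h, against 0.211 ± 0.010% in Control 24 h (SD, n = 3 each). These sums were set mostly by g16187, which held 1.41% at PreCondTre 12 h and 0.893% at Trehalose 24 h, but only 0.417% at NaCl 24 h. Within ARId1 (g16168 to g16208) the 9 genes held 15.1 ± 0.36% of TPM at PreCondTre 12 h, against 6.04 ± 0.39% at PreCondTre 0 h. Their share of the range was 14.8 ± 1.10% at Trehalose 24 h, 9.23 ± 0.12% at NaCl 24 h and 9.14 ± 0.67% at Mannitol 24 h. In Control 24 h it was 5.82 ± 0.27%. The 9 genes thus took a greater part of the TPM of this range in these groups than at PreCondTre 0 h or in Control 24 h. This is a description for which no test was run.

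**Figure D4:**
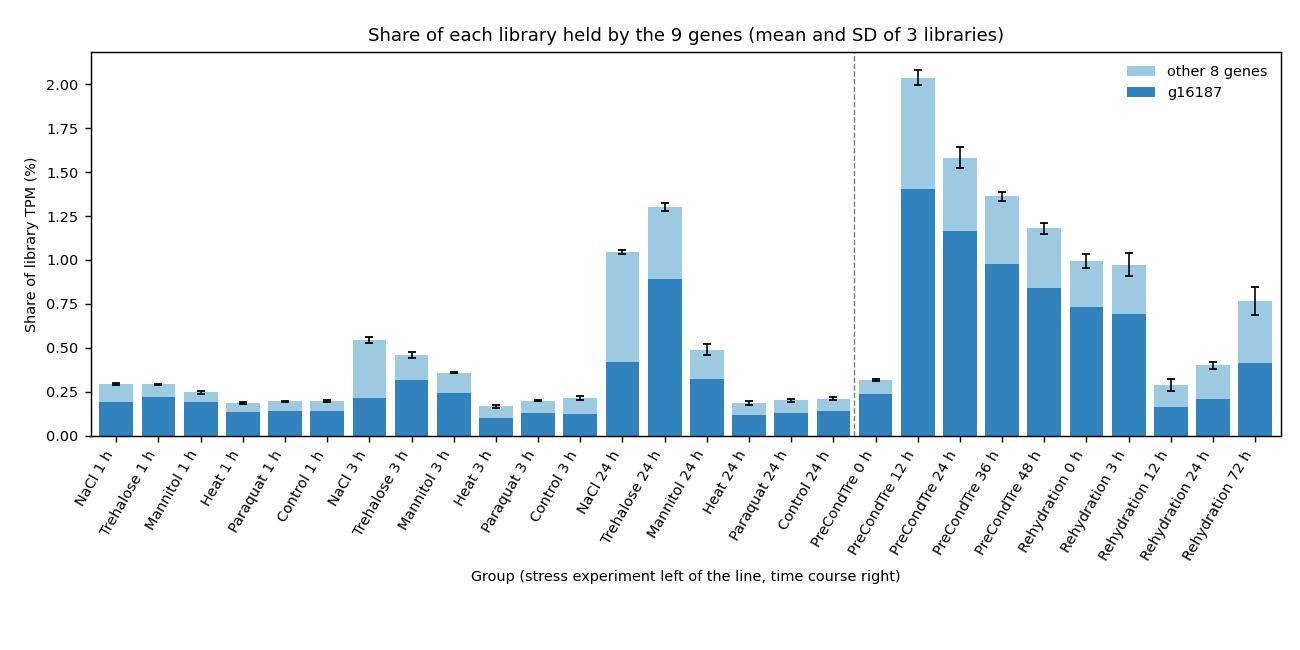
Share of each library's TPM (%, from 0) held by the 9 genes, as the mean of 3 libraries per group with SD of the sum as error bars; the dark part is g16187 and the light part the other 8. The share is highest at PreCondTre 12 h (2.04%), declines over preconditioning, and drops to 0.288% at Rehydration 12 h.

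The 9 genes have 262 transcripts in the table, of which g16187 has 135, g16184 47 and g16179 1; 64 of them had a mean above 1 TPM and were tested. Of these 64, 59 were called in at least 1 of the 24 comparisons, where 67.9% of all 22728 transcripts tested were. At NaCl 24 h 38 of 64 were called higher, where 7.1% of all transcripts were, at Trehalose 24 h 40, where 7.63% were, and at PreCondTre 12 h 37, where 5.94% were. At Rehydration 12 h 15 were called lower, where 3.92% were. Rises were thus called in many of the transcripts tested, of which 21 were of g16187. A transcript could pass the filter through the groups where its gene was high. These counts are therefore not independent of the rises of the genes, and they leave the untested transcripts aside. RSEM divides reads among transcripts with shared sequence by estimate, so values of single transcripts are less certain than the gene sums.

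Besides g16179, which has a single transcript, only g16183 had the same leading transcript in every group: g16183.t1 held 76.6% of g16183 on average and led in 28 of 28 groups. g16186.t1 (56.5%) and g16186.t6 (33.0%), g16178.t1 (58.4%) and g16178.t3 (28.9%), and g16180.t3 (42.8%) and g16180.t1 (30.1%) were the leading pairs of their genes. In g16185 the leading pair, g16185.t13 (35.4%) and g16185.t21 (33.8%), was nearly even, and g16185.t13 led in 11 groups. In g16182 the first transcript, g16182.t1 (72.2%), was listed at 0 in all 3 libraries of Rehydration 0 h. The change of this transcript at that point was also called by limma (log2 change −4.67, adjusted p = 1.3e-05), so it fell along with the gene at drying. How the drop divides among the transcripts was not tested.

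The leading transcript of g16187 varied between replicates far more than the gene did. g16187.t1 held 26.8% of the gene on average, but its share within a group spanned over 20 points in 9 of 28 groups (median span 15.8 points). At Trehalose 24 h it held 0.714% to 32.5%, and at Control 3 h 11.1% to 46.5%. In Control 24 h it was at or near 0 in all 3 libraries (up to 0.119%), whereas at Rehydration 24 h it held 45.8% to 49.0%. The second transcript, g16187.t139 (16.8% on average), had a median span of 3.38 points and exceeded 20 points in no group. The gene sum of g16187, in contrast, had a median coefficient of variation of 4.43% within groups.

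**Figure D5:**
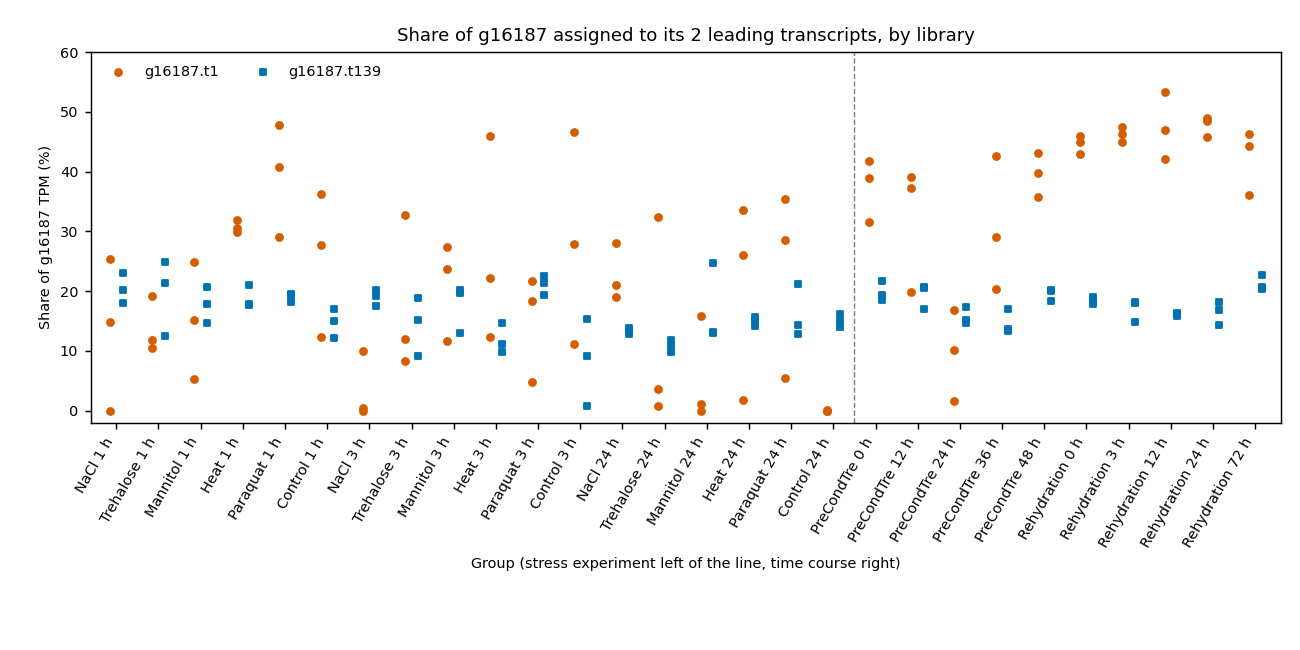
Share of g16187 TPM (%) assigned to its transcripts g16187.t1 (circles) and g16187.t139 (squares) in each library, by group. The circles spread widely within many stress groups, lie at or near 0 in Control 24 h and close up at 42.1% to 53.3% at Rehydration 0 to 24 h, while the squares stay in a narrower band.

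Over the 28 group means of log2(TPM + 1), 8 of the 9 genes had alike patterns. The pairs without g16182 had Pearson r of 0.725 to 0.969 (median 0.892), with g16185 and g16186 the most alike. g16182 had lower values, with r of 0.339 to 0.652 to the others. It also had the widest spread within groups of the 9 genes (median coefficient of variation 35.2%). The part of that spread in its lower r was not tested. Genes next to each other in the run had a median r of 0.877 over 8 pairs, against 0.863 over all 36 pairs. The points share libraries and the library total, and these values are given as a description.

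Among all genes tested, the most alike to g16178 were g16176 (r = 0.975), g16173 (0.962) and g16174 (0.960), its neighbours in Block 1. The most alike to g16187 were g16190 (0.976), g16208 (0.970) and g10977 (0.970), and to g16185 they were g16186 (0.969), g16191 (0.952) and g877 (0.949). In g16184, g16183 and g16186 the single most alike gene lay outside g16168 to g16208. For g16184 the nearest were g17490 (0.971), g17498 (0.963) and g522 (0.959), and for g16183 g16348 (0.965), g16351 (0.964) and g17499 (0.952). For g16186 they were g17251 (0.973), g16185 of the same run (0.969) and g16350 (0.966). For g16179 they were g522 (0.950), g16178 (0.933) and g17498 (0.922), and for g16180 g17490 (0.951), g16184 (0.946) and g16185 (0.940). g16182 had no near match, with g17640 (0.757), g15776 (0.700) and g348 (0.676) closest. Of the 10 most alike genes, 7 were within g16168 to g16208 for g16185, 6 for g16178, and 5 each for g16179, g16184 and g16186. The count was 4 for g16180, 3 for g16187, 2 for g16183 and 1 for g16182.

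The other genes of Blocks 1 to 4 were called in the same settings, in differing numbers. At NaCl 24 h 9 of 9 genes of the middle run were called higher (median 3.81 on the log2 scale), against 9 of 9 tested genes of g16168 to g16177 (median 3.82) and 9 of 10 of g16188 to g16197 (median 2.93). Counts at NaCl 24 h were 3 of 3 in Block 2 (g16198 to g16200), 2 of 4 in Block 3 (g16201 to g16204) and 2 of 4 in Block 4 (g16205 to g16208). At Mannitol 3 h none of the 9 was called higher, against 2 of 9 genes of g16168 to g16177 and 6 of 10 of g16188 to g16197. Over all genes, 434 of 9450 were called higher there. At PreCondTre 12 h the middle run had 9 of 9 called higher (median 2.88), g16168 to g16177 had 9 of 9 (median 3.33) and g16188 to g16197 had 8 of 10 (median 1.86). At Rehydration 72 h against PreCondTre 0 h the middle run had 7 of 9 (median 1.91), g16168 to g16177 had 8 of 9 (median 4.02) and g16188 to g16197 had 4 of 10 (median 0.69). At Rehydration 12 h 4 of 9 were called lower in the middle run, against 5 of 9 in g16168 to g16177 and 8 of 10 in g16188 to g16197. By median, the middle of the Block lay between its ends at PreCondTre 12 h and at Rehydration 72 h against PreCondTre 0 h. By count of calls it was below both ends at Mannitol 3 h and Rehydration 12 h. These counts depended on scaling, after which the middle run had 4 called higher at Mannitol 3 h and 6 called lower at Rehydration 12 h. Scaled counts were not made for the other runs, so this order is not firm. Differences between runs were not tested, and the shares of all genes called in these comparisons are given above.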

How the data were processed

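The authors mapped reads with Bowtie2 to the coding sequences of the Pv_5.2.4 gene set, estimated transcript levels with RSEM as run by Trinity's scripts, and gave the result to GEO as TPM (the deposited unit), 1 row per transcript and 1 column per library; the use of strand is not given in the sources used here. TPM corrects for length and total but not for composition. The authors' count tests (DESeq2, edgeR) rested on counts not used here. All 84 columns were matched to groups by name; no 2 libraries were identical. TPM was summed per gene, transformed as log2(TPM + 1) and tested where the mean exceeded 1; fold changes on this scale understate those of low genes. limma 3.58.1 (R 4.3.3, data.table, version 1.17.8) was fitted with trend and empirical Bayes, separately for 54 stress and 30 time-course libraries, with Benjamini-Hochberg adjustment over all 9450 genes (22728 transcripts). Calls needed an adjusted p under 0.05 and a fold above 2. Fits were tested on simulated data. Figures used Python 3.11.15 and matplotlib 3.10.9.

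Named are all 9 genes, the 2 transcripts of each with the highest mean, and the 3 genes most alike to each by Pearson r; the other Blocks are given as counts. Members and lists were chosen with earlier results of these data known. Alternatives were another pseudocount, filters, a fit without trend, only the groups compared, a stricter call, replicate block, each replicate or library left out, and median ratio scaling (factors 0.592 to 1.71 over 9254 genes). Chromosome positions and sequences of these genes were not used here.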

Additional observations from a re-analysis of the deposited data

Results flagged for a closer look

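These results were picked out because the response to an osmolyte differed between 24 h and 3 h by a direct test of that difference in limma (change from Control 24 h at 24 h minus change from Control 3 h at 3 h, on the log2 scale, adjusted over 9450 genes). For NaCl the difference was 3.31 in g16178, 1.69 in g16179, 1.12 in g16180, 4.54 in g16182, 2.58 in g16183, 2.11 in g16185 and 2.25 in g16186, all greater at 24 h. For trehalose it was 3.13 in g16178, 1.68 in g16179, 1.56 in g16180, 3.23 in g16182, 2.27 in g16183, 1.74 in g16184, 2.63 in g16185, 2.58 in g16186 and 1.31 in g16187. For mannitol it was 1.14 in g16178, 1.18 in g16183, 1.27 in g16185 and 1.16 in g16186. The median of all genes also differed, by 0.63 for NaCl, 0.44 for mannitol and 0.48 for trehalose, and its part in these values was not tested beyond the scaling given in the next part. Both times use their own Control, and the mean of Control 3 h was above that of Control 24 h in 8 of the 9 genes. In g16185 it was 17.3 ± 0.86 TPM in Control 24 h and 34.0 ± 11.3 TPM in Control 3 h, beside 80.7 ± 19.4 TPM at Mannitol 24 h and 61.2 ± 11.6 TPM at Mannitol 3 h. In g16186 it was 23.6 ± 2.08 and 44.4 ± 31.8 TPM, beside 82.7 ± 17.0 TPM at Mannitol 24 h and 58.0 ± 3.53 TPM at Mannitol 3 h (SD, n = 3 each). The part of Control in these differences was not tested.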

How the results depend on the processing

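No called change turned round under any alternative. Of 279 changes (9 genes in 31 comparisons), 23 differed in sign after median ratio scaling, none of them called either way, such as g16183 at NaCl 3 h (0.31 after scaling, −0.56 before). At NaCl 24 h, Trehalose 24 h and PreCondTre 12 h all 9 genes stayed called under every alternative except the strict call. Median ratio scaling gave 5 genes called at NaCl 1 h, 4 at Mannitol 3 h, 2 at Trehalose 1 h, 5 at Trehalose 3 h, 1 at Heat 3 h, 0 at PreCondTre 24 h, 1 at Rehydration 0 h, 0 at Rehydration 3 h, 2 at Rehydration 24 h, 7 at Rehydration 72 h against 24 h and 0 for the mannitol response. A pseudocount of 0.1 lost the call of g16182 at Rehydration 24 h. Testing all genes above 0 gave 0 at Rehydration 3 h, and fitting only the groups compared gave 0 at Heat 3 h and 0 at Rehydration 3 h. The strict call (adjusted p under 0.001, fold above 4), which by construction calls fewer, gave 0 at NaCl 1 h, 3 at NaCl 3 h, 1 at Mannitol 24 h, 0 at Trehalose 3 h, 0 at Heat 3 h, 0 at PreCondTre 24 h, 1 at Rehydration 0 h, 0 at Rehydration 3 h, 2 at Rehydration 12 h, 0 at Rehydration 24 h, 0 at Rehydration 72 h against 24 h, 3 at Rehydration 72 h against PreCondTre 0 h, 1 between trehalose and NaCl, 1 between trehalose and mannitol, 4 between NaCl and mannitol, 0 for the mannitol response, 5 for the trehalose response, and 30 of the 64 transcripts.

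With replicates or libraries left out, the counts were 0 to 2 at Mannitol 3 h, 0 to 1 at Trehalose 1 h, 1 to 4 at Heat 3 h, 0 to 1 at Heat 24 h, 0 to 1 at Paraquat 24 h, 0 to 1 at PreCondTre 24 h, 0 to 1 at Rehydration 3 h, 0 to 2 at Rehydration 24 h, 2 to 6 at Rehydration 72 h against 24 h and 2 to 5 for the mannitol response. Replicate numbers only name the libraries: deviations of same-numbered libraries all correlated above 0.1 in 3 of 28 comparisons, and the replicate block changed none of 104 gene results and 32 counts (6 genes called at NaCl 3 h with and without it). Limma without a trend and a filter on group means changed no call. The depth is unknown, so that g16182 and g16179, at few TPM, have no counting interval. Causes of these differences were not tested.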
